A study of Mus musculus with 18 samples.

Results

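The gastrocnemius of HSA-LR mice was compared with that of WT mice, using the 3 libraries labeled as untreated HSA-LR gastrocnemius and the 3 labeled as WT gastrocnemius, 6 of the 18 libraries of the series. Every mouse was of the FVB strain and 20 weeks old, and each library was made from polyA-selected RNA of 1 mouse with a stranded kit. HSA-LR mice carry a human skeletal actin (ACTA1) transgene with a long CTG repeat, so the repeat RNA is made in skeletal muscle fibers and lies outside its disease gene, Dmpk. The agent is labeled untreated in both groups, while the treatment field of the same labels names an intravenous injection of oligonucleotide or saline, so whether these mice received saline is not clear. The other gastrocnemius libraries, from 3 HSA-LR mice injected with Pip6a-PMO (a morpholino antisense oligomer joined to a cell-penetrating peptide), entered the fit only to share the estimate of spread. The quadriceps libraries of the same groups and replicate numbers, taken as the same 6 mice, were used for comparison.

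RNA with expanded CUG repeats binds the muscleblind proteins (Mbnl1 and its relatives), which control the switch of many transcripts from fetal to adult splice forms in muscle. In myotonic dystrophy, and in HSA-LR mice, loss of free muscleblind protein leads to a missplicing of the chloride channel Clcn1 and to myotonia, the delayed relaxation of a muscle fiber that keeps firing after a contraction. The gastrocnemius of a mouse is a limb muscle built mostly of fast fibers, which differ in myosin isoform, calcium handling and fuel use.

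The deposited values were counts of read pairs per exon bin, which were summed per gene and are given below as TMM-normalised CPM. Totals ran from 124221612 to 143135976 counts in WT and from 115372791 to 123634658 in HSA-LR libraries, so each WT library was deeper than each HSA-LR library. The 10 most abundant genes held 28.0% to 31.5% of the counts in WT and 25.6% to 27.1% in HSA-LR mice. The ratio of counts near the 5′ end to counts near the 3′ end of a transcript (median of 2582 genes) was 0.658 to 0.692 in WT and 0.724 to 0.733 in HSA-LR mice, with no overlap. Its part in the results was tested only as a covariate in the fit. The skeletal muscle genes that define the tissue were abundant in every library, as the fast fiber sarcomere genes below show. The label of sex went against the data for 2 WT mice: WT mouse 2, labeled female, had 153 CPM over 4 genes of the Y chromosome (Ddx3y, Kdm5d, Uty and Eif2s3y), and WT mouse 3, labeled male, had 1.13 CPM, with the same pattern in their quadriceps (189 and 1.45 CPM). WT mouse 1 and the 3 HSA-LR mice, all labeled male, had 158 to 165 CPM. Results were therefore also computed without each of these mice.

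HSA-LR and WT gastrocnemius differed at 2427 of 15625 genes tested (15.5%) at an adjusted P under 0.1, the limit used for every call below. Each adjusted P is that of edgeR's quasi-likelihood test, with the method of Benjamini and Hochberg applied over all genes tested. Of these, 1343 genes were higher in HSA-LR mice (8.60% of those tested) and 1084 were lower (6.94%). At least a 2-fold difference was seen at 756 called genes (4.84%), 558 of them higher (3.57%) and 198 lower (1.27%). The absolute log2 fold change (FC) of the called genes had a median of 0.65, and the median log2 FC of all genes was -0.01. Without WT mouse 2 the count of calls was 1490, and without WT mouse 3 it was 2108. It was 1370, 1357 and 1408 without HSA-LR mice 1, 2 and 3, and 1051 genes (631 higher, 420 lower) were called in the fit of all 9 mice and in each of the 9 fits that left out 1 mouse. Genes named below kept their call in each of those 9 fits unless the text says otherwise, and log2 FC is that of HSA-LR minus WT with its SE (n = 3 mice per group).

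**Figure D1:**
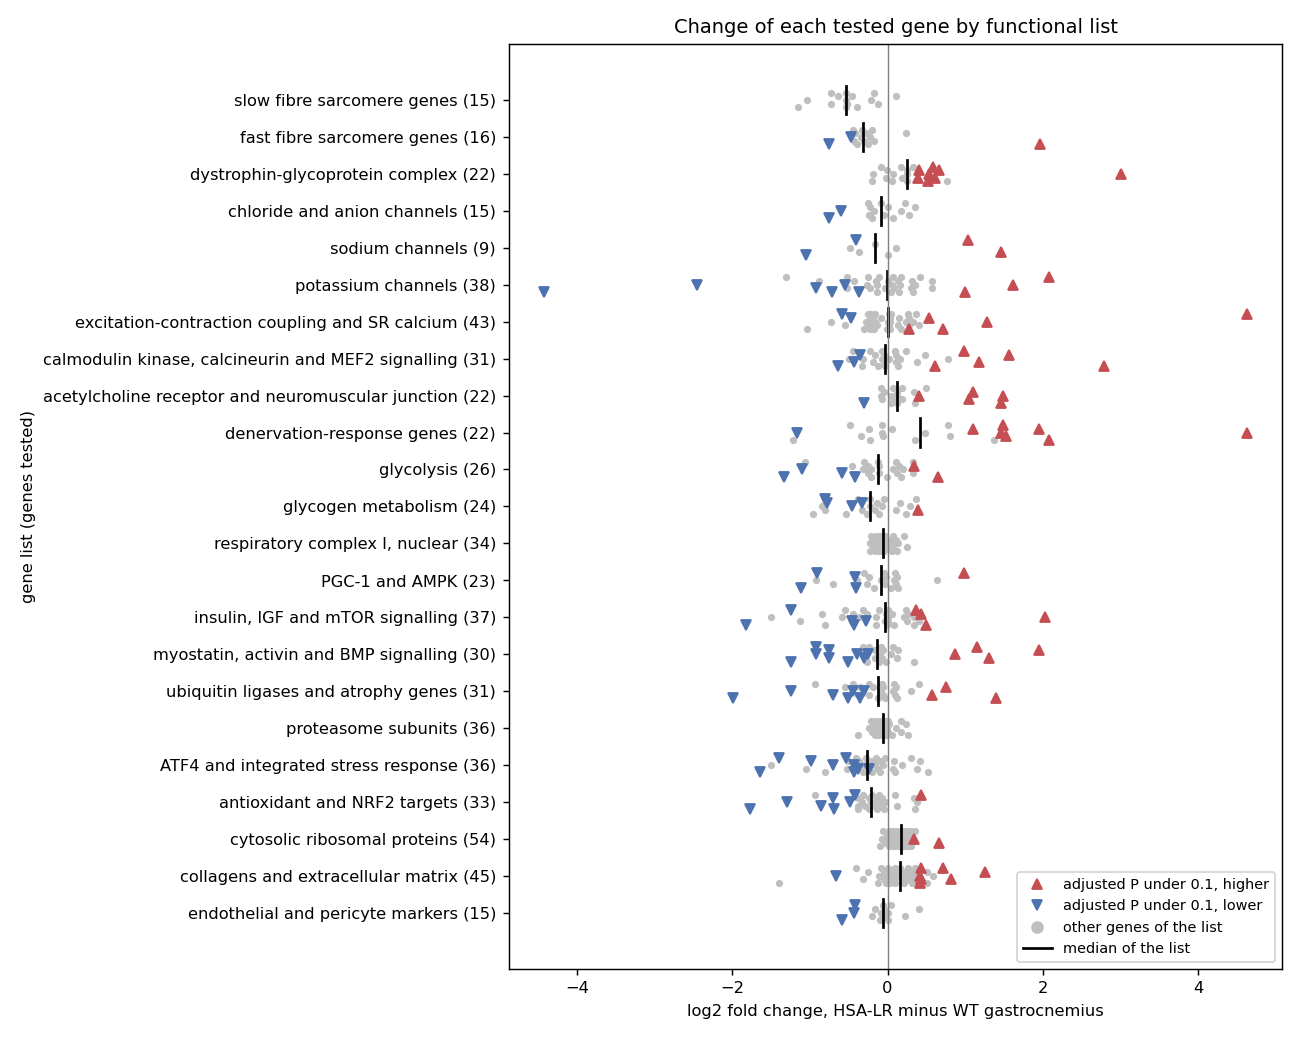
Each point is 1 tested gene of a functional list, placed by its log2 FC (HSA-LR minus WT gastrocnemius, n = 3 mice per group); upward red and downward blue triangles are genes with an adjusted P under 0.1, gray circles are other genes, and the black bar is the median of the list. The dystrophin-glycoprotein complex holds 8 red and no blue triangles, the ATF4 list holds 9 blue and no red ones, and the proteasome and complex I lists hold neither.

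These protein-coding genes were among those with the smallest P and higher in HSA-LR mice. Eda2r, a death-domain receptor for ectodysplasin A2 and a p53 target, measured 13.2, 10.9 and 9.32 CPM in the 3 WT mice and 84.3, 67.5 and 88.5 CPM in the 3 HSA-LR mice (log2 FC 2.84 ± 0.18, adjusted P = 7.57e-05). Cd24a, a surface glycoprotein, rose from 136 to 151 CPM in WT mice to 351 to 423 CPM in HSA-LR mice. Plekho1 (log2 FC 2.66 ± 0.21), the CBP-binding factor Cited1 (4.36 ± 0.33), the DNA polymerase theta gene Polq (2.99 ± 0.19), the calmodulin-like gene Calml4 (3.13 ± 0.23), the adhesion receptor gene Cxadr (3.26 ± 0.24) and the copine gene Cpne2 (1.88 ± 0.12) were also higher in every HSA-LR mouse than in any WT mouse.

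On the lower side, Igfbp5, a secreted binding protein of the insulin-like growth factors, measured 664, 594 and 653 CPM in WT mice and 174, 214 and 154 CPM in HSA-LR mice (log2 FC -1.82 ± 0.15, adjusted P = 0.000217). Enho, which encodes the peptide adropin, fell by 2.23 ± 0.15 on the log2 scale. Cdnf, an endoplasmic reticulum neurotrophic factor, fell by 1.95 ± 0.19, and the vesicle gene Vamp1 fell by 1.44 ± 0.14. The core-binding factor subunit Cbfb, partner of the Runx proteins, fell from 138 to 157 CPM in WT mice to 63.1 to 63.5 CPM in HSA-LR mice. The acyl-CoA thioesterase Acot7 (log2 FC -1.33 ± 0.12), the clock gene relative Arntl2 (-3.93 ± 0.35), the membrane-shaping gene Reep1 (-1.13 ± 0.10), the transcription factor Cebpd (-1.25 ± 0.12) and Kbtbd12, a muscle gene of the Kelch family (-1.02 ± 0.11), fell too, with no overlap between groups.

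Fiber type was read from the myosin heavy chains, of which Myh7 marks slow fibers and Myh2, Myh1 and Myh4 mark type 2A, 2X and 2B fast fibers. Myh1 measured 2344, 3922 and 6633 CPM in WT mice and 19162, 13312 and 17921 CPM in HSA-LR mice, a 3.91-fold difference (log2 FC 1.97 ± 0.35, adjusted P = 0.00908) with every HSA-LR mouse above every WT mouse. As a share of the counts per kilobase of these 4 genes, Myh1 made up 3.56%, 6.32% and 13.2% in WT and 36.3%, 22.5% and 28.7% in HSA-LR mice, and Myh4 made up 94.7%, 88.1% and 77.7% in WT and 58.0%, 74.9% and 66.5% in HSA-LR mice. The Myh1 share differed by 21.5 percentage points (7.69% ± 4.96 against 29.2% ± 6.90, SD) and that of Myh4 by -20.3 points (86.8% ± 8.58 against 66.5% ± 8.43). The groups did not overlap for either share, and the two-sided exact permutation test over mice gave P = 0.1, the smallest that 3 against 3 mice allow. The CPM of Myh4 itself did not pass the test (log2 FC -0.42 ± 0.24, adjusted P = 0.31), and its WT and HSA-LR values overlapped.

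**Figure D2:**
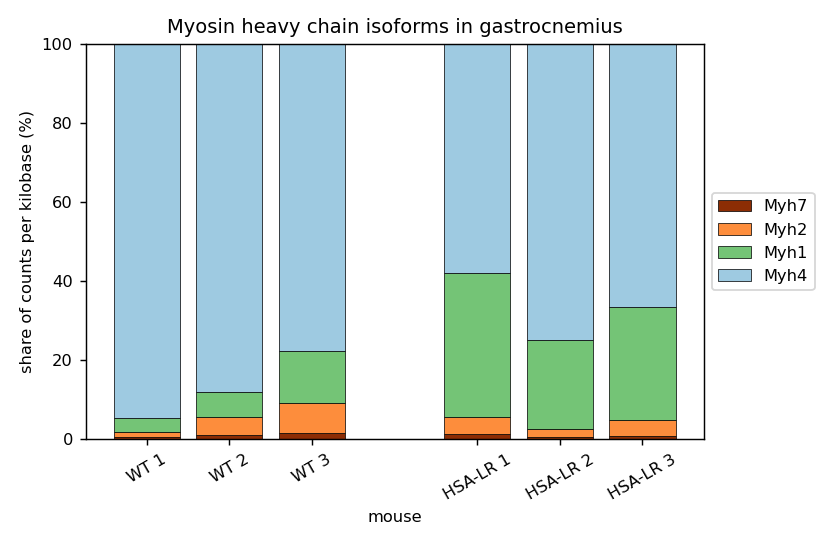
Bars show, for each of the 6 gastrocnemius samples, the share (%) of the summed counts per kilobase of 4 myosin heavy chain genes held by each of them. The green Myh1 segment takes 3.56% to 13.2% of the bar in WT mice and 22.5% to 36.3% in HSA-LR mice.

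The oxidative end of the myosin series overlapped between groups. By the same exact test, Myh2 was 1.11% to 7.45% of the shares in WT and 2.10% to 4.41% in HSA-LR mice (P = 0.7), and Myh7 was 0.652% to 1.70% and 0.479% to 1.25% (P = 0.5). None of the 15 slow fiber sarcomere genes tested was called in edgeR's test (the background is 15.5% of all genes), with a median log2 FC of -0.54. Of 16 fast fiber sarcomere genes, Myh1 rose, and Atp2a1 and the myosin kinase Mylk2 fell, with a median of -0.31. The call of Mylk2 (log2 FC -0.76 ± 0.25) was lost in 6 of the 9 fits that left out a mouse (without WT mice 1 or 2, any HSA-LR mouse or Pip6a-PMO mouse 2, adjusted P up to 0.25).

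Among 7 developmental sarcomere isoforms, the cardiac actin gene Actc1 measured 35.7, 48.8 and 286 CPM in WT mice and 6.43, 5.07 and 8.84 CPM in HSA-LR mice (log2 FC -4.19 ± 0.79, adjusted P = 0.0112). WT mouse 3 set much of this size, and without it the log2 FC was -2.64, still called. Perinatal myosin Myh8 was 4.93 to 8.73 CPM in WT and 12.4 to 14.9 CPM in HSA-LR mice (log2 FC 0.99 ± 0.31, adjusted P = 0.0782), a call lost without WT mice 1 or 2 or any HSA-LR mouse (adjusted P up to 0.21). The skeletal actin gene Acta1 did not pass the test (log2 FC 0.09 ± 0.12, adjusted P = 0.71), and its counts could include reads of the human transgene, so its value is uncertain. Of 30 Z-disc, titin and obscurin genes, 4 rose and none fell (13.3%, beside 15.5% of all genes), with a median of 0.22. No call on this list held in each of the 9 fits. Pdlim3, a Z-disc PDZ-LIM protein, had a log2 FC of 0.75 ± 0.19, and lost its call without WT mice 1 or 2 or HSA-LR mice 1 or 3 (adjusted P up to 0.13).

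The dystrophin-glycoprotein complex links the cytoskeleton of the fiber to the basal lamina. Of its 22 genes tested, 8 rose and none fell (36.4%, beside 15.5% of all genes in either direction and 8.60% higher), with a median log2 FC of 0.25. Beta-1-syntrophin Sntb1, an adaptor on the inner face of the complex, measured 2.38, 2.52 and 3.70 CPM in WT mice and 19.8, 23.3 and 26.3 CPM in HSA-LR mice (log2 FC 3.01 ± 0.29, adjusted P = 0.000446). The other increases were below 2-fold. The laminin chain Lama2 was 51.1 to 56.4 CPM in WT and 77.7 to 82.9 CPM in HSA-LR mice (log2 FC 0.61 ± 0.07, adjusted P = 0.00103). Sarcospan Sspn (0.59 ± 0.09) and caveolin Cav3 (0.53 ± 0.09) rose as well. The calls of Sgca (0.39 ± 0.10, lost without HSA-LR mice 2 or 3) and Sgcd (0.66 ± 0.19, lost without WT mice 1 or 2 or any HSA-LR mouse) were less stable, with adjusted P up to 0.14 and 0.18. The summed level of the list was 1345 to 1401 CPM in WT and 1636 to 1717 CPM in HSA-LR mice.

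Ion channels of the fiber membrane set its resting potential and its firing. The chloride conductance runs through Clcn1, which measured 355, 355 and 267 CPM in WT mice and 213, 190 and 175 CPM in HSA-LR mice (log2 FC -0.76 ± 0.14, adjusted P = 0.0106), with no overlap. Of 15 chloride and anion channel genes, Clcn1 and Lrrc8c fell and none rose (13.3%, beside 15.5% of all genes). Lrrc8c, a subunit of the volume-regulated anion channel, had a log2 FC of -0.60 ± 0.15 and lost its call without WT mouse 1 or HSA-LR mice 1 or 2 (adjusted P up to 0.13).

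The muscle sodium channel pore Scn4a measured 543, 533 and 427 CPM in WT and 401, 398 and 370 CPM in HSA-LR mice and did not pass the test (log2 FC -0.36 ± 0.16, adjusted P = 0.19). Of 9 sodium channel genes tested, 2 rose and 2 fell (44.4%, beside 15.5% of all genes). Among those that fell was the accessory subunit Scn4b (-0.41 ± 0.11), whose call was lost without WT mouse 2 or HSA-LR mice 2 or 3 (adjusted P up to 0.14).

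Of 38 potassium channel genes tested, 3 rose and 6 fell (23.7%, beside 15.5% of all genes). Kcnab1, a cytoplasmic beta subunit of voltage-gated channels, had the largest decrease on the list. It measured 105, 81.4 and 35.5 CPM in WT mice and 3.58, 3.46 and 3.25 CPM in HSA-LR mice, a 21.5-fold difference (log2 FC -4.43 ± 0.39, adjusted P = 0.00033). The silent subunits Kcnf1 (4.90 to 7.75 CPM in WT, 0.753 to 1.77 CPM in HSA-LR mice) and Kcns1 (0.272 to 0.523 and 0.0167 to 0.0379 CPM) fell too.

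Channels of slower or calcium-gated potassium current moved the other way. Kcnq5, of the M-current family, was 13.3 to 14.1 CPM in WT and 24.8 to 29.7 CPM in HSA-LR mice (1.99-fold, adjusted P = 0.000349). The small-conductance calcium-activated channel Kcnn3 measured 1.32, 1.17 and 3.21 CPM in WT mice and 8.16, 7.35 and 8.74 CPM in HSA-LR mice (log2 FC 2.09 ± 0.34, adjusted P = 0.0056). Among 8 genes of the sodium-potassium pump, Atp1b4, a muscle-enriched relative of the beta subunits, rose from 1.31 to 4.24 CPM to 9.41 to 14.3 CPM, and no other member was called.

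**Figure D3:**
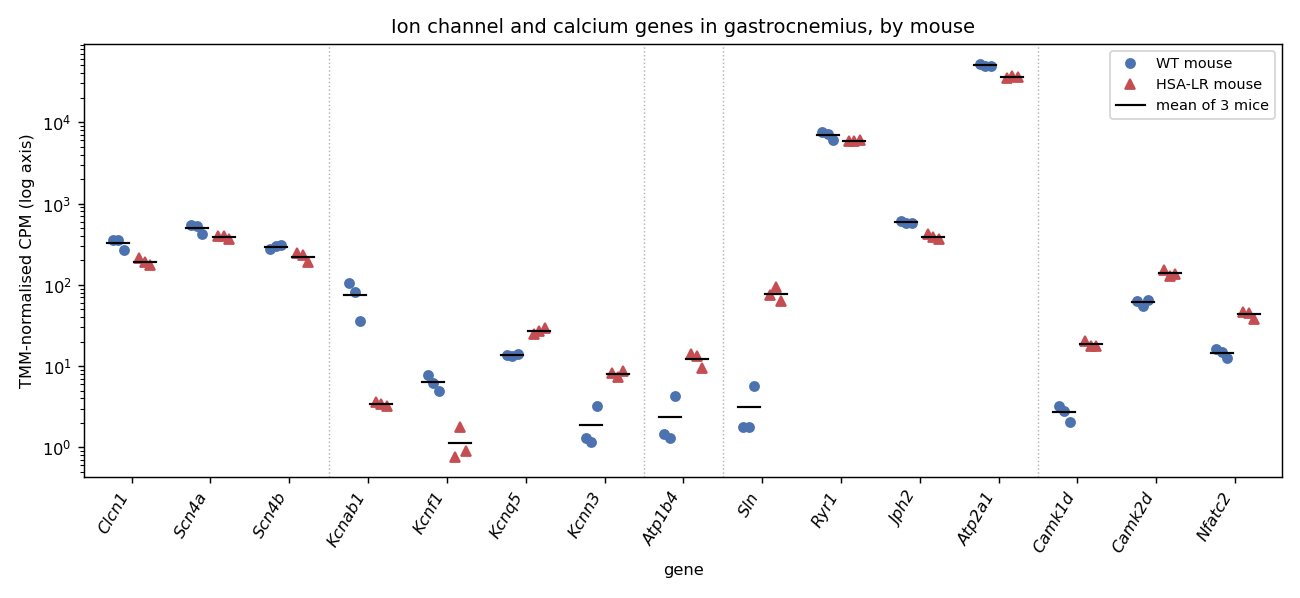
TMM-normalised CPM on a log axis of 15 genes of chloride, sodium and potassium channels, the pump, sarcoplasmic reticulum calcium handling and calcium signaling, with 1 blue circle per WT mouse, 1 red triangle per HSA-LR mouse and a black bar at the mean of 3 mice. Sln is 1.77 to 5.77 CPM in WT and 62.8 to 94.7 CPM in HSA-LR mice, and Kcnab1 shows the opposite order, at 35.5 to 105 and 3.25 to 3.58 CPM.

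Calcium leaves the sarcoplasmic reticulum through the ryanodine receptor Ryr1, gated by the voltage sensor Cacna1s, and is pumped back by Atp2a1 (SERCA1). Sarcolipin Sln, a small peptide that uncouples the calcium pump, had the largest increase of the 43 genes tested in this group. It measured 1.77, 1.80 and 5.77 CPM in WT mice and 75.4, 94.7 and 62.8 CPM in HSA-LR mice (log2 FC 4.64 ± 0.48, adjusted P = 0.000564), a 24.8-fold difference. The pump Atp2a1 was lower, at 52566, 48660 and 49537 CPM in WT and 35129, 37232 and 36183 CPM in HSA-LR mice (log2 FC -0.47 ± 0.13, adjusted P = 0.0491). The call of Atp2a1 was lost without WT mice 1 or 2 or any HSA-LR mouse (adjusted P up to 0.15), although its groups did not overlap.

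Junctophilin Jph2, which holds the T-tubule next to the reticulum, measured 609, 584 and 575 CPM in WT mice and 425, 390 and 363 CPM in HSA-LR mice (log2 FC -0.59 ± 0.13, adjusted P = 0.0188). Neither Ryr1 (-0.23 ± 0.12, adjusted P = 0.29) nor Cacna1s (0.02 ± 0.09, adjusted P = 0.94) passed the test. The minor receptor Ryr3 was 0.502 to 1.34 CPM in WT and 1.77 to 2.83 CPM in HSA-LR mice (1.28 ± 0.32), with its call lost without HSA-LR mouse 3 (adjusted P = 0.12). Over the list of 43 genes, 5 rose and 2 fell (16.3%, near the 15.5% of all genes), with a median of 0.01.

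Calmodulin kinases and calcineurin carry the calcium signal to transcription factors such as NFAT and MEF2. Of 31 genes tested, 5 rose and 3 fell (25.8%, beside 15.5% of all genes). The 5 increases, unlike the decreases, held in each of the 9 fits. Camk2d was 55.0 to 65.9 CPM in WT and 128 to 153 CPM in HSA-LR mice (log2 FC 1.18 ± 0.12, adjusted P = 0.000482). The calcineurin target Nfatc2 measured 16.4, 14.8 and 12.5 CPM in WT mice and 46.8, 45.5 and 37.5 CPM in HSA-LR mice (1.57 ± 0.16, adjusted P = 0.000475). Camk1d (2.79 ± 0.17) and protein kinase D1 (Prkd1, 0.98 ± 0.15) rose as well. Lower genes included Camk2g (-0.35 ± 0.09) and the calmodulin gene Calm3 (-0.64 ± 0.17). Calls were lost without WT mice 1 or 2 or any HSA-LR mouse for Camk2g and without WT mice 1 or 2 or HSA-LR mice 1 or 3 for Calm3 (adjusted P up to 0.13 and 0.15).

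Genes of the neuromuscular junction are transcribed along the whole fiber when a muscle lacks nerve-driven activity. Of 22 tested, 5 rose and 1 fell (27.3%, beside 15.5% of all genes, 8.60% higher and 6.94% lower), with a median log2 FC of 0.12, and 1 of the 6 calls held in each of the 9 fits. The acetylcholine receptor alpha subunit Chrna1 measured 19.9, 23.0 and 16.6 CPM in WT mice and 52.6, 55.0 and 59.7 CPM in HSA-LR mice (log2 FC 1.49 ± 0.24, adjusted P = 0.00571). The receptor kinase Musk was 11.1 to 18.8 CPM in WT and 30.9 to 58.6 CPM in HSA-LR mice (1.47 ± 0.46, adjusted P = 0.0763), and the fetal gamma subunit Chrng was 0.319 to 0.640 and 0.798 to 1.14 CPM (1.10 ± 0.36, adjusted P = 0.0916). The nuclear anchor Syne1 had a log2 FC of 1.05 ± 0.28, the agrin receptor Lrp4 one of 0.41 ± 0.13 and the receptor-clustering protein Rapsn one of -0.30 ± 0.09. Calls were lost for Musk and Rapsn without any 1 of the 6 mice compared, for Chrng without WT mice 1 or 2 or any HSA-LR mouse, for Syne1 without HSA-LR mice 2 or 3, and for Lrp4 without WT mice 1 or 3 or HSA-LR mice 1 or 3 (adjusted P up to 0.13 for Syne1 and up to 0.18 to 0.25 for the others). When the largest exon bin stood for the gene, Musk (1.29), Chrng (0.68), Lrp4 (0.17) and Rapsn (-0.20) were not called (adjusted P of 0.10, 0.25, 0.48 and 0.11).

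Promoters of these genes are shown because members that lie on different chromosomes moved in the same direction. The E-box CAGCTG, a palindrome and thus the same on both strands, is a motif that myogenic factors can bind. It occurred in a RefSeq promoter (250 bases before to 50 after the start, GRCm38.p6) of 4 of 4 genes matched among the 6 called. The same held for 4 of 12 other genes of the list. Counted by promoter, it was in 4 of the 6 promoters of the called genes, beside 16.3% of 32851 promoters. The match is a description of the letters and not of binding. The 30-base windows below are given 5′ to 3′ on the gene's strand, with the motif in capitals. They lie at chr2:73580413-73580442 and chr2:73580365-73580394 (minus strand, 92 and 44 bases before the start) for Chrna1, chr1:87205644-87205673 and chr1:87205667-87205696 (plus strand, 155 and 132 bases before the start) for Chrng, chr4:58285882-58285911 (plus strand, 68 bases) for Musk and chr10:5550769-5550798 (minus strand, 94 bases) for Syne1.
Chrna1, farther from the start: ctgtgggcagctCAGCTGtcatgcgggcac
Chrna1, nearer to the start: tagctgtggagtCAGCTGgcttccaaggcc
Chrng, farther from the start: atatcctgggaaCAGCTGacaatgcagtgg
Chrng, nearer to the start: gcagtggtcagaCAGCTGgtggggccagct
Musk: gtgagttctcccCAGCTGgccacgtccatc
Syne1: cggcaggagcagCAGCTGcagggggcggga

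A wider list of genes known to rise after denervation had 7 genes higher and 1 lower of 22 tested (36.4%, beside 15.5% of all genes, 8.60% higher and 6.94% lower), with a median of 0.42, and 5 of the 7 are also counted above (Sln, Kcnn3, Chrna1, Musk and Chrng). The others were Runx1, a transcription factor that protects denervated muscle (1.91, 1.94 and 2.40 CPM in WT, 5.98, 4.75 and 7.33 CPM in HSA-LR mice, log2 FC 1.53 ± 0.18, adjusted P = 0.00103), and Gdf5, a growth factor of the BMP family that was scarce in both groups (at most 0.0818 and 0.301 CPM). The imprinted gene Peg3 fell (-1.16 ± 0.22). None of 12 Schwann cell and axon markers was called (median -0.26). Of 29 myogenic and satellite cell genes, 5 rose and none fell (17.2%, beside 15.5% of all genes). The satellite cell receptor Calcr (1.31 ± 0.25) and the receptor Fgfr4 (0.77 ± 0.17) held in each fit, and Myod1 (10.4 to 14.6 CPM in WT, 18.3 to 26.7 CPM in HSA-LR mice, 0.78 ± 0.19) lost its call without HSA-LR mouse 2 (adjusted P = 0.12).

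Lists of energy metabolism differed in their share of calls. None of 34 nuclear complex I genes and 2 of 40 genes of complexes II to V were called, against 15.5% of all genes, with medians of -0.06 and -0.02. The 2 that fell were muscle isoforms of cytochrome oxidase subunits, Cox8b (131, 145 and 142 CPM in WT, 98.7, 89.4 and 90.4 CPM in HSA-LR mice, log2 FC -0.58 ± 0.10, adjusted P = 0.00706) and Cox6a2 (-0.38 ± 0.10, lost without WT mouse 2 or any HSA-LR mouse, adjusted P up to 0.14). Of 38 genes of fatty acid uptake and oxidation, 1 rose and 1 fell (5.26%, median -0.16).

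Among 33 genes of the pyruvate dehydrogenase complex and citric acid cycle, 2 rose and 1 fell (9.09%, beside 15.5% of all genes). Ogdhl, a tissue-restricted relative of the oxoglutarate dehydrogenase subunit, measured 4.92, 4.12 and 2.22 CPM in WT mice and 28.2, 33.9 and 27.6 CPM in HSA-LR mice (log2 FC 2.99 ± 0.29, adjusted P = 0.000453). Pdk3, a kinase that inhibits pyruvate dehydrogenase, rose by 1.39 ± 0.29. Of 26 glycolysis genes, 2 rose and 4 fell (23.1%, beside 15.5% of all genes, median -0.12). Mitochondrial glycerol-3-phosphate dehydrogenase Gpd2, part of a shuttle that carries electrons from glycolysis to the respiratory chain, measured 220, 196 and 236 CPM in WT mice and 102, 102 and 101 CPM in HSA-LR mice (log2 FC -1.10 ± 0.10, adjusted P = 0.000408). Its cytosolic partner Gpd1 was also lower (-0.59 ± 0.16, lost without WT mice 1 or 2 or HSA-LR mice 1 or 3, adjusted P up to 0.17). Pfkfb1, a regulator of phosphofructokinase, rose (0.64 ± 0.11).

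Of 24 glycogen genes, 1 rose and 4 fell (20.8%, beside 15.5% of all genes, median -0.22). The glycogen phosphatase laforin, Epm2a, fell from 67.7 to 71.4 CPM to 38.2 to 42.1 CPM (log2 FC -0.77 ± 0.08, adjusted P = 0.000475), as did the glycogen synthase kinase Gsk3a (-0.33 ± 0.07). Glycogen synthase Gys1 had the opposite sign (0.39 ± 0.12), a call lost without WT mice 1 or 2, any HSA-LR mouse or Pip6a-PMO mouse 2 (adjusted P up to 0.25).

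AMPK senses a shortage of ATP. Of 23 genes of the AMPK and PGC-1 list, 1 rose and 4 fell (21.7%, beside 15.5% of all genes). The 4 that fell were regulatory subunits of AMPK. Prkab2, the beta subunit of skeletal muscle, measured 428, 386 and 320 CPM in WT mice and 168, 175 and 181 CPM in HSA-LR mice (log2 FC -1.11 ± 0.15, adjusted P = 0.00217). Prkag2 fell by 0.91 ± 0.13. Prkag1 (-0.42 ± 0.10) lost its call only without HSA-LR mouse 2 (adjusted P = 0.10). The coactivator Ppargc1a did not pass the test (0.09 ± 0.43, adjusted P = 0.93), and Ppargc1b was higher (0.99 ± 0.26, lost without HSA-LR mice 1 or 2, adjusted P up to 0.14).

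Of 37 genes of insulin and IGF signaling, 4 rose and 5 fell (24.3%, beside 15.5% of all genes, 8.60% higher and 6.94% lower), with a median of -0.04. Upstream, the adaptor Irs1 measured 43.6, 49.0 and 49.7 CPM in WT mice and 21.2, 21.5 and 17.6 CPM in HSA-LR mice (log2 FC -1.24 ± 0.12, adjusted P = 0.000438), beside the fall of Igfbp5 given above. The insulin receptor Insr was 40.4 to 41.0 CPM in WT and 52.1 to 58.0 CPM in HSA-LR mice (0.43 ± 0.12, adjusted P = 0.0539). That call was lost without any 1 of the 6 mice compared (adjusted P up to 0.17) and when the largest exon bin stood for the gene (adjusted P = 0.49). Downstream, the kinase Akt2 (-0.46 ± 0.08) and the transcription factor Foxo4 (-0.43 ± 0.08) fell. Tbc1d1, a Rab regulator of glucose transporter traffic, measured 45.5, 46.8 and 50.1 CPM in WT mice and 153, 145 and 282 CPM in HSA-LR mice (2.02 ± 0.29, adjusted P = 0.00326).

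The TGF-beta superfamily, which includes the brake on muscle growth, myostatin, had 13 of 30 genes called (43.3%, beside 15.5% of all genes, 8.60% higher and 6.94% lower), 4 higher and 9 lower. Of these, 3 higher and 4 lower were called in each of the 9 fits. Among ligands, Tgfb3 was 28.5 to 31.9 CPM in WT and 60.3 to 71.3 CPM in HSA-LR mice (log2 FC 1.15 ± 0.10, adjusted P = 0.000337) and Gdf11 rose (1.31 ± 0.27), while Tgfb2 fell (-0.51 ± 0.11). Myostatin itself, Mstn, measured 107, 65.3 and 46.2 CPM in WT and 30.6, 38.9 and 46.1 CPM in HSA-LR mice (-0.92 ± 0.29, adjusted P = 0.0752), and the log2 FC was -0.54 without WT mouse 1. Its call was lost without WT mice 1 or 2 or any HSA-LR mouse (adjusted P up to 0.22). Of the receptors and signal carriers, the type 2 activin receptor Acvr2a (-1.25 ± 0.24), Smad3 (-0.92 ± 0.20) and the inhibitory Smad6 (-0.75 ± 0.17) fell.

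Protein breakdown was examined by its ubiquitin ligases and proteasome. None of 36 proteasome subunits was called (median -0.06). The ligases that mark muscle atrophy did not pass the test either: Trim63 (MuRF1) was 207 to 286 CPM in WT and 217 to 241 CPM in HSA-LR mice (log2 FC -0.06 ± 0.16, adjusted P = 0.86), and Fbxo32 (atrogin-1) was 115 to 334 and 181 to 196 CPM (-0.24 ± 0.34, adjusted P = 0.72). Over the list of ligases and atrophy genes, 3 of 31 rose and 7 fell (32.3%, beside 15.5% of all genes). Of these, 1 higher and 5 lower genes were called in each of the 9 fits. Fbxo31, a substrate adaptor of a ubiquitin ligase, fell (-0.51 ± 0.08). Of 47 autophagy and lysosome genes, 2 rose and 8 fell (21.3%, beside 15.5% of all genes). Of these, 1 call held in each fit, that of the autophagosome protein Map1lc3b (148, 148 and 151 CPM in WT, 105, 104 and 108 CPM in HSA-LR mice, -0.50 ± 0.08, adjusted P = 0.00502).

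The integrated stress response raises genes of amino acid supply through the factor ATF4 when translation is slowed. In HSA-LR gastrocnemius 9 of the 36 genes tested on this list fell (25%, beside 6.94% of all genes) and none rose. The median log2 FC was -0.26. These counts depend on which genes were listed: Atf3, which rose (log2 FC 1.69), was placed with the immediate early genes below and not here. Chac1, which degrades glutathione and is a sensitive ATF4 target, measured 46.0, 48.9 and 39.0 CPM in WT mice and 20.0, 10.3 and 12.6 CPM in HSA-LR mice (-1.64 ± 0.44, adjusted P = 0.0453), a call lost without WT mouse 2 or HSA-LR mice 2 or 3 (adjusted P up to 0.15). The amino acid transporter Slc7a5 was 3.91 to 8.96 CPM in WT and 1.76 to 2.67 CPM in HSA-LR mice (-1.40 ± 0.32, lost without HSA-LR mouse 2, adjusted P = 0.10), and its partner chain Slc3a2 fell (-0.43 ± 0.09). The mitochondrial folate enzyme Aldh1l2 (-0.99 ± 0.21), the proline synthesis enzyme Pycr1 (-0.54 ± 0.12), the transcription factor Cebpb (-0.71 ± 0.15) and the glycyl-tRNA synthetase Gars (-0.38 ± 0.08) fell with no overlap between groups, though with the largest exon bin of the gene Pycr1 had -0.22 and was not called (adjusted P = 0.36). The groups did not overlap for Mthfd2 (-0.43 ± 0.13) and Nars (-0.24 ± 0.08) either, but their calls were lost without WT mice 1 or 2 or any HSA-LR mouse, and for Nars also without WT mouse 3 (adjusted P up to 0.20 and 0.27), and with the largest exon bin of either gene (adjusted P of 0.34 and 0.11).

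Promoter windows of 3 of these genes are shown because they hold TGATGNAA (TTNCATCA on the other strand), the core of the composite site that ATF4 can bind with a C/EBP partner. It occurred in 3 of 6 genes matched among the 9 called, in 5 of 24 other genes of the list and in 3.97% of 32851 RefSeq promoters of the same length. Windows are again 5′ to 3′ on the gene's strand with the motif in capitals, at chr2:119351038-119351067 (plus strand, 193 bases before the start) for Chac1, chr6:55037960-55037989 (plus strand, 30 bases) for Gars and chr11:120643833-120643862 (minus strand, 103 bases) for Pycr1, on GRCm38.p6.
Chac1: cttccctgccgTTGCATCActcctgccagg
Gars: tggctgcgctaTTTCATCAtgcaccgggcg
Pycr1: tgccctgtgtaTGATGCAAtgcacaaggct

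**Figure D4:**
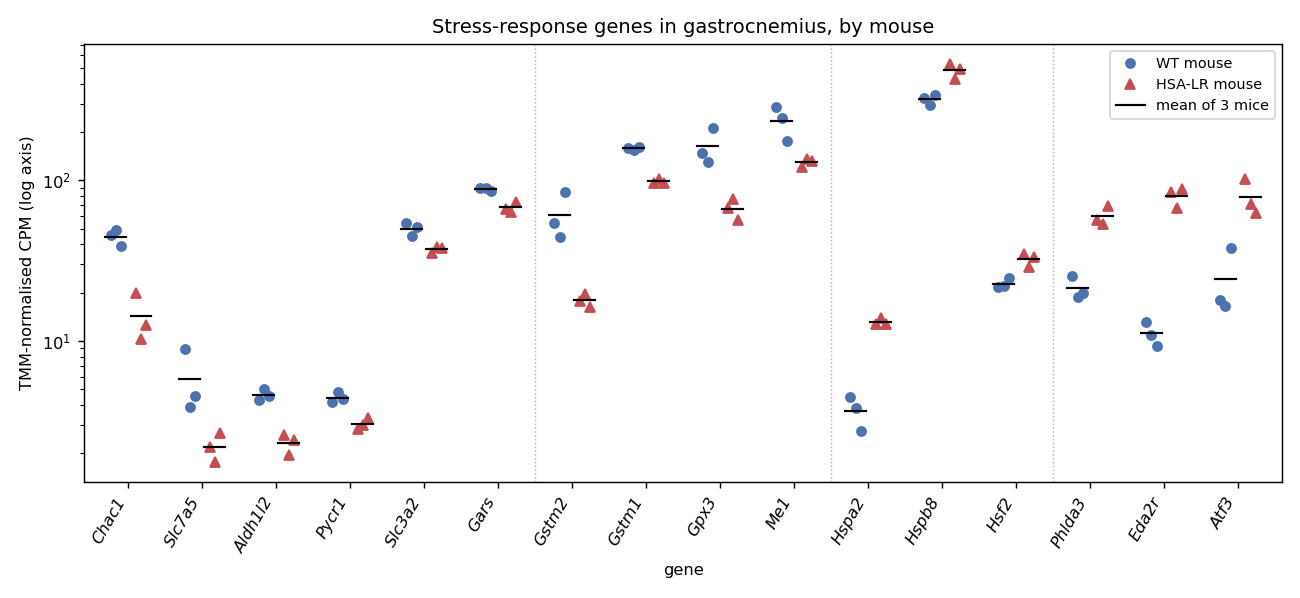
TMM-normalised CPM on a log axis of 16 stress-response genes, grouped from left to right as ATF4 targets, antioxidant enzymes, heat shock genes and p53 or immediate early genes, with 1 blue circle per WT mouse, 1 red triangle per HSA-LR mouse and a black bar at the mean of 3 mice. The first 10 genes are lower in each HSA-LR mouse than in any WT mouse and the last 6 are higher.

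Of 33 antioxidant genes tested, 7 fell (beside 6.94% of all genes) and 1 rose (beside 8.60%), with a median of -0.21, and 5 of the 7 were called in each of the 9 fits that left out 1 mouse. The glutathione transferase Gstm2 measured 54.4, 44.5 and 84.4 CPM in WT mice and 17.8, 19.5 and 16.4 CPM in HSA-LR mice (log2 FC -1.77 ± 0.25, adjusted P = 0.003). Reads of this family can be shared between near-identical copies, so Gstm1 (-0.69 ± 0.11) and Gstm2 are uncertain as separate genes. The secreted glutathione peroxidase Gpx3 was 131 to 211 CPM in WT and 56.8 to 76.1 CPM in HSA-LR mice (-1.29 ± 0.25, adjusted P = 0.0122). The NADPH-producing malic enzyme Me1 (-0.86 ± 0.18) and glutathione reductase Gsr (-0.41 ± 0.09) fell. The NRF2 targets Nqo1 (-0.48 ± 0.12) and Hmox1 (-0.70 ± 0.18) lost their calls without WT mouse 1 or HSA-LR mouse 2, Nqo1 also without WT mouse 2 or HSA-LR mouse 3, and Hmox1 also without HSA-LR mouse 1 (adjusted P up to 0.13).

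Of 26 endoplasmic reticulum chaperones and unfolded protein genes, 4 rose and 1 fell (19.2%, beside 15.5% of all genes, median 0.13). The main chaperone Hspa5 did not pass the test (log2 FC 0.29 ± 0.13, adjusted P = 0.19). Of 30 heat shock genes, 1 fell and 3 rose (13.3%, beside 15.5% of all genes, median 0.13). They were Hspa2, a chaperone of the Hsp70 family (4.46, 3.82 and 2.75 CPM in WT, 12.7, 13.9 and 12.8 CPM in HSA-LR mice, 1.84 ± 0.16, adjusted P = 0.000336), the small heat shock protein Hspb8 of the Z-disc quality control (0.60 ± 0.11) and the factor Hsf2 (0.51 ± 0.10).

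Of 27 p53 targets, 2 rose and 2 fell (14.8%, beside 15.5% of all genes). The increases were Eda2r, given above, and Phlda3, an inhibitor of Akt (25.5, 18.9 and 19.9 CPM in WT, 56.7, 53.8 and 69.5 CPM in HSA-LR mice, 1.49 ± 0.14, adjusted P = 0.000444). Mdm2, the ligase that restrains p53, was lower (-0.31 ± 0.08), a call lost without WT mice 2 or 3 or any HSA-LR mouse (adjusted P up to 0.13). Of 39 cell cycle genes, 3 rose and 4 fell (17.9%, beside 15.5% of all genes). Birc5 rose (3.02 ± 0.34) from at most 0.172 CPM, and the cyclin-dependent kinase inhibitor Cdkn2c (-0.99 ± 0.14) and the cyclin Ccnd3 (-0.49 ± 0.10) fell. Among 30 immediate early genes, Atf3 rose (16.5 to 38 CPM in WT, 62.5 to 101 CPM in HSA-LR mice, 1.69 ± 0.38, adjusted P = 0.0237), while Zfp36, which destabilizes cytokine mRNA, fell (-1.31 ± 0.24), and the median of the list was -0.36. Of 40 interferon and RNA-sensing genes, 2 rose and 1 fell (7.5%, beside 15.5% of all genes, median -0.07). Ifih1 (MDA5), a sensor of double-stranded RNA, rose from 1.89 to 2.44 CPM to 3.57 to 4.08 CPM (0.89 ± 0.15, adjusted P = 0.00646).

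The RNA level of the muscleblind proteins did not pass the test. Mbnl1 was 282 to 331 CPM in WT and 281 to 331 CPM in HSA-LR mice (log2 FC -0.04 ± 0.13, adjusted P = 0.90), and Mbnl2 was 86.3 to 128 and 97.7 to 135 CPM (0.11 ± 0.24, adjusted P = 0.83). Of 31 genes of the MBNL, CELF and RBFOX list, which regulate splicing, 2 rose and 3 fell (16.1%, beside 15.5% of all genes). Celf2 measured 53.2, 48.7 and 53.7 CPM in WT mice and 31.1, 32.1 and 34.2 CPM in HSA-LR mice (-0.68 ± 0.15, adjusted P = 0.0203), and Rbfox1 fell (-0.42 ± 0.10). Celf4 rose from at most 0.151 CPM to 0.502 to 0.813 CPM (2.39 ± 0.34). Cytosolic ribosomal protein genes leaned upward, with 49 of 54 log2 FC values above 0 and a median of 0.17, but only 2 of the 54 were called (3.70%, below the 8.60% of all genes that rose). Of 22 clock genes, 2 fell and none rose (9.09%, beside 15.5% of all genes). Nfil3, a repressor of the clock output, was 18.8 to 29.3 CPM in WT and 9.67 to 13.2 CPM in HSA-LR mice (-1.20 ± 0.20, adjusted P = 0.00618).

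Cells other than muscle fibers also add RNA to these libraries, and in bulk tissue fewer cells of a type and less RNA per cell cannot be told apart. Of 45 collagen and matrix genes, 7 rose and 1 fell (17.8%, beside 15.5% of all genes, median 0.16). Among them, Col24a1 (log2 FC 1.26 ± 0.24) and Col6a3 (0.42 ± 0.09) were called in each fit. Col6a1 (0.42 ± 0.12) and Col6a2 (0.43 ± 0.14) were higher with calls lost without any 1 of the 6 mice compared (adjusted P up to 0.20 and 0.24) or with the largest exon bin of the gene (0.15 and 0.12). Of 19 macrophage markers, 3 rose (15.8%, beside 15.5% of all genes) with a median of -0.04. The summed level of these markers overlapped between groups (84.8 to 120 CPM in WT, 98.9 to 119 CPM in HSA-LR mice). The chemokine receptor Cx3cr1 rose (2.20 ± 0.47) but stayed below 0.26 CPM in every mouse.

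Of 15 endothelial and pericyte markers, 3 were lower and none higher (20%, beside 15.5% of all genes). They were Vwf (-0.59 ± 0.16), Acta2 (-0.42 ± 0.11) and Tagln (-0.43 ± 0.11). Their calls were lost without any HSA-LR mouse, for Vwf also without WT mice 1 or 3, for Acta2 also without WT mice 2 or 3 and for Tagln also without WT mouse 1 (adjusted P up to 0.15). The summed level of the list overlapped between groups (882 to 988 CPM in WT, 852 to 925 CPM in HSA-LR mice). Markers of fibro-adipogenic progenitors (1 higher and 1 lower of 10) and tendon (2 higher of 8) had summed levels that overlapped between groups, at 1844 to 2218 and 1865 to 2295 CPM for the former and 181 to 347 and 280 to 410 CPM for the latter. None of 9 lymphocyte and neutrophil markers was called, and their sum was at most 5.53 CPM.

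Markers of fat and blood gave no call, and their summed levels, which did not overlap between groups, were not tested. None of 13 adipocyte markers was called, and their median and sum had opposite signs, with a median log2 FC of -0.89 and a summed level of 1831 to 2344 CPM in WT and 2662 to 2726 CPM in HSA-LR mice. None of 8 erythroid markers was called (median -1.69), and their summed level was 854 to 3964 CPM in WT and 572 to 747 CPM in HSA-LR mice, with no overlap. The part of these cells in the gene lists above was not tested.

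The quadriceps, taken as that of the same mice, was used to see how far the gastrocnemius pattern extended to another limb muscle. Of the genes called in gastrocnemius, 2388 could be tested in quadriceps, 1615 of them were called there with the same sign and 1 with the opposite sign, beside 20.3% of all quadriceps genes called in either direction (3169 of 15574, 11.0% higher and 9.31% lower). Sln (log2 FC 4.64 in gastrocnemius, 4.38 in quadriceps), Kcnab1 (-4.43 and -3.85), Sntb1 (3.01 and 2.78), Clcn1 (-0.76 and -0.89), Prkab2 (-1.11 and -1.04), Gstm2 (-1.77 and -1.41) and Ogdhl (2.99 and 3.57) were called in both. The list medians had the same sign for the dystrophin-glycoprotein complex (0.25 and 0.30) and the ATF4 list (-0.26 and -0.19, with 10 genes lower and 1 higher in quadriceps). They differed in sign for 14 of 49 lists, among them the immediate early genes (-0.36 and 0.53), and the markers of macrophages (-0.04 and 0.84, with 12 genes higher in quadriceps), fibro-adipogenic progenitors (-0.04 and 0.49), adipocytes (-0.89 and 0.15) and erythroid cells (-1.69 and 0.02). Myh1 was called in gastrocnemius only (1.97 and 0.94, adjusted P = 0.11 in quadriceps), as was Zfp36 (-1.31 and 0.07), although the difference between muscles did not pass the test for either. The interaction of genotype and muscle gave no call among 16167 genes (710, or 4.39%, at an unadjusted P under 0.05). Samples of the same number were then taken as the same mouse, and the mouse was added as a block in the fit. The interaction then gave 5 calls (0.0309%, with 1384 genes or 8.56% at an unadjusted P under 0.05).

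**Figure D5:**
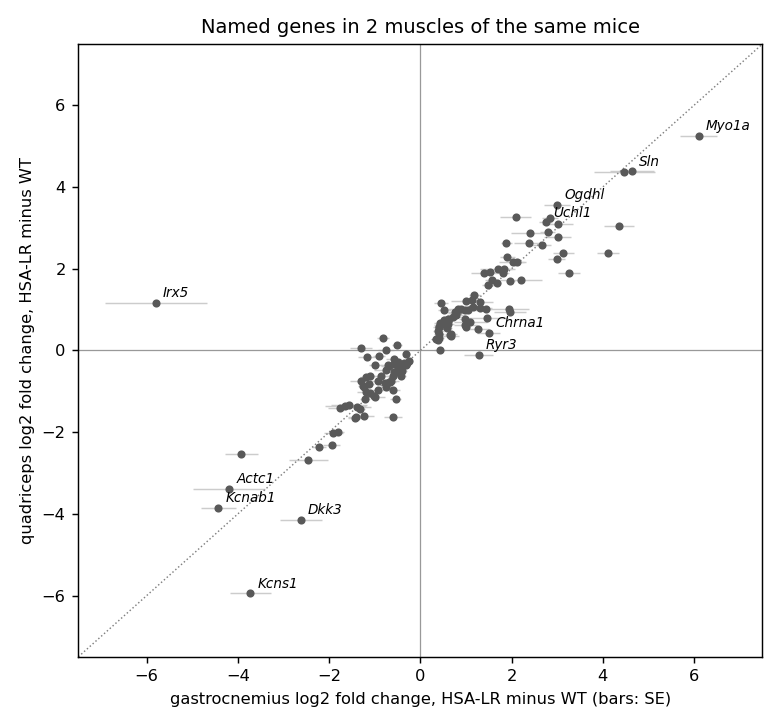
Log2 FC of HSA-LR minus WT in gastrocnemius (horizontal axis, bars are SE) and in quadriceps (vertical axis), 1 point per gene, with the dotted line at equal change. Points are genes picked for naming that were called in gastrocnemius and tested in quadriceps. Not all of them are named in the text. Of 157 genes, 151 have the same sign in both muscles, and Irx5 lies farthest from the line. Some of these genes were picked after their values in both muscles were seen, so the count does not stand for all called genes.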

How the data were processed

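Poly(A) RNA was sequenced from both muscles, with 3 mice in each group (WT, HSA-LR, and HSA-LR given Pip6a-PMO), and groups, replicate numbers and age were taken from the sample labels. The files deposited by the authors hold raw counts of reads on exon bins, 1 file per library, neither normalized nor pooled, on GRCm38. The submitters' processing notes name CASAVA, HISAT and featureCounts 1.5.0. The annotation release was not given in the sources used here, and symbols came from GENCODE M21, which held 46520 of the 46725 genes. Entries naming no gene (2.82% to 4.14% of a library) were left out. A pair that spans several bins counts in each of them, so a gene's sum is weighted toward genes with short exons.

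Bins were summed per gene, filtered with filterByExpr (minimum count 10, minimum total 15), scaled by TMM factors, and fitted in edgeR 4.0.16 (R 4.3.3) by its quasi-likelihood functions glmQLFit and glmQLFTest, using all 9 libraries per muscle. P values were adjusted by the Benjamini-Hochberg method and called under 0.1. DESeq2 1.42.0 and limma 3.58.1 served as alternatives, and the scripts were tested on simulated data. Shares of myosin signal were compared by a two-sided exact permutation test. Whether mice of a group shared litters is not stated, so P values reflect the spread between these mice. Same-numbered WT and HSA-LR gastrocnemius samples are different mice. Gastrocnemius and quadriceps of the same number within a group were taken as the same mouse, and the interaction was repeated with a block for the mouse. Deviations from the group means correlated at 0.11 to 0.55 over these 6 pairs and at -0.42 to 0.18 over 12 pairs of unlike number. The ranges overlap, so these values do not settle the pairing. Figures used Python 3.11.15 with matplotlib 3.10.9.

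The comparison and the 49 gene lists, written from general knowledge, were chosen with earlier results of these data known. Named genes were the 20 protein-coding genes with the smallest P in each direction among calls of at least 2-fold without overlap, up to 4 called genes in each direction per list, and a set of fixed muscle genes. Chac1, Pycr1, Slc7a5, Mthfd2, Nars, Chrng, Sgca, Sgcd, Col6a2, Gsr, Nqo1, Hmox1 and the genes of the closing section were chosen after their values were seen. Not every gene that meets the rule is reported. Alternatives covered other filters, scalings, tools and sets of libraries, the largest exon bin, the replicate number as a block, and each mouse left out; the 5′ to 3′ ratio as a covariate was added after the data were seen. Xist was not analysed here.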

Additional observations from a re-analysis of the deposited data

Results flagged for a closer look

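The HSA-LR minus WT difference was not the same in gastrocnemius and quadriceps for 5 genes, by edgeR's test of the interaction with the mouse as a block (adjusted P under 0.1 of 16167 genes, 0.0309%). None of the 5 was called without the block (adjusted P of at least 0.22). Values below are the interaction in log2, gastrocnemius minus quadriceps.

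Dusp14, a phosphatase of the MAP kinases, had an interaction of -1.10 (adjusted P = 0.0265 with the block), with 8.66, 8.10 and 10.2 CPM in WT and 5.40, 4.72 and 5.17 CPM in HSA-LR gastrocnemius, and 4.94 to 5.93 and 5.99 to 7.02 CPM in quadriceps. Ppp1r1a, an inhibitor of protein phosphatase 1, had one of 1.02 (adjusted P = 0.0458) and measured 52.5 to 78.0 CPM in WT and 34.8 to 45.2 CPM in HSA-LR gastrocnemius, and 49.8 to 85.4 and 18.7 to 21.7 CPM in quadriceps. Its gastrocnemius call (log2 FC -0.60) was lost without WT mice 2 or 3 or any HSA-LR mouse (adjusted P up to 0.25), with the largest exon bin of the gene (0.12) and with the 5′ to 3′ covariate.

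WT mouse 3 stood apart from the other WT mice in both muscles at the WNT-related gene Dkk3 and at the protease inhibitor Serpinb1a, and its sex label went against its Y-linked genes. Dkk3 (interaction 1.52, adjusted P = 0.0151) measured 22.2, 26.0 and 5.55 CPM in WT and 2.77 to 3.04 CPM in HSA-LR gastrocnemius. Serpinb1a (-1.55, adjusted P = 0.0265) measured 3.03, 3.27 and 9.73 CPM in WT and 6.39 to 8.40 CPM in HSA-LR gastrocnemius, and it belongs to a family of close copies, so its value is uncertain. The limb patterning factor Irx5 (-7.00, adjusted P = 0.0265) measured 2.25, 0.364 and 2.33 CPM in WT and 0.0456, 0.0379 and 0 CPM in HSA-LR gastrocnemius, and at most 0.398 CPM in any quadriceps, so the size of its interaction rests on a few counts and on the fit. Over the fits that left out 1 mouse, the 5 interactions kept their sign. Groups of 3 mice were not tested for outliers.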

How the results depend on the processing

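The count of calls ran from 1357 to 3538 over the fits that left out 1 of the 9 mice, and the count of 2-fold calls from 583 to 886. Under the other alternatives both counts stayed within 1.5 times the reported ones. With the replicate number as a block, 1805 genes were called and 672 at least 2-fold; the numbers do not pair these mice, as deviations of same-numbered samples correlated with r from -0.20 to 0.07. Of the 2427 calls, none changed sign except 11 of 2325 tested when the largest exon bin stood for the gene. The 5′ to 3′ ratio as a covariate, chosen after seeing the data, gave 2978 calls, 2194 of them shared. The difference in share of Myh1 ranged from 17.9 to 24.8 points without a mouse and that of Myh4 from -24.9 to -16.1. The interaction of genotype and muscle gave 0 to 3 calls without a mouse (3 without WT replicate 3) and 5 with the mouse as a replicate block.

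No named gene that was called changed sign. Of genes not called, with a largest bin Myh2 had a log2 FC of 1.13, Cacna1s of -0.0045 and Ppargc1a of -0.068. With the 5′ to 3′ covariate Ppargc1a had -0.41, Trim63 0.038 and Mbnl2 -0.11. Leaving out a mouse turned Myh2 (-0.68 to 0.22), Cacna1s (-0.024 to 0.083), Ppargc1a (-0.15 to 0.21), Trim63 (-0.15 to 0.10), Fbxo32 (-0.56 to 0.18), Mbnl1 (-0.11 to 0.0099) and Mbnl2 (-0.058 to 0.29). The causes were not tested.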

Other observations

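Some genes outside the lists moved in both muscles; they were chosen after their values were seen. Fbp2, the muscle fructose-1,6-bisphosphatase, measured 17.9, 16.0 and 16.9 CPM in WT and 52.1, 71.1 and 67.8 CPM in HSA-LR gastrocnemius (log2 FC 1.91 ± 0.16, edgeR's adjusted P = 0.000269) and had a log2 FC of 2.29 in quadriceps. Crhr2, a receptor of the urocortins in muscle, fell from 34.0 to 44.1 CPM to 12.1 to 16.9 CPM (-1.41 ± 0.18 and -1.63).

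Chrna9, an acetylcholine receptor subunit known from hair cells of the ear and not from the muscle receptor, measured 0.155, 0.0429 and 0.344 CPM in WT and 1.92, 4.95 and 5.33 CPM in HSA-LR gastrocnemius (log2 FC 4.47 ± 0.66, adjusted P = 0.00367), and it had a log2 FC of 4.36 in quadriceps. Ostn, which encodes the secreted peptide musclin, was 22.2, 24.3 and 67.6 CPM in WT and 11.1 to 15.6 CPM in HSA-LR mice (-1.57 ± 0.39). The log2 FC of Ostn was -0.86 without WT mouse 3, and its call was lost without HSA-LR mice 2 or 3 (adjusted P up to 0.12).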
